A study of Mus musculus with 18 samples.

Results

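The genes described here encode the machinery by which a cell receives a Notch signal, together with the genes that such a signal is known to switch on. They are the fringes Lfng, Mfng and Rfng, the receptors Notch1, Notch2 and Notch3, the ligand Jag1 and the target genes Hes1, Hey1 and Heyl. These 10 genes were picked by name from the 20295 genes of the count table, because Lfng stood among the genes with the strongest repression by isoproterenol and by SR-3420. The levels of Lfng in the 3 groups without inhibitors therefore selected the list and are given as a description, without a test.

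Notch receptors are single-pass proteins that bind ligands of the Jagged and Delta-like families on a neighbouring cell. Binding exposes the receptor to cutting by an ADAM protease and then by gamma-secretase, and the freed intracellular part enters the nucleus, where it joins the DNA-binding protein RBPJ and a Mastermind-like co-activator at target genes such as Hes1. Fringes are Golgi enzymes that lengthen O-fucose sugars on the receptor and thereby shift its preference between Jagged and Delta-like ligands. In adipose tissue, Notch activity is known as a brake on the brown and beige gene program.

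RNA-seq counts came from BAT-LgT cells, a single wild-type line of mouse brown preadipocytes carrying the SV40 large T antigen, which had been differentiated in culture and were used on day 7. The inhibitor groups were first exposed for 1 h to drugs that block ATGL and HSL, the enzymes that release fatty acids from stored triglyceride, and carry the prefix Lipase Inh. All cells then received DMSO (Vehicle), 100 nM of isoproterenol (ISO), which activates β-adrenergic receptors, or SR-3420, a ligand of the ATGL co-activator ABHD5, for 3 h. The labels give 10 µM for SR-3420, whereas the text of the paper gives another dose, and which of them applies was not settled. Without inhibitors the groups are named Vehicle, ISO and SR-3420. With inhibitors they are named Lipase Inh. + SR-3420, Lipase Inh. + ISO and Lipase Inh. + Vehicle, and each of the 6 groups held 3 samples. The methods describe the replicates as independent experiments.

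Of the 18 libraries, 17 held between 10310447 and 21205032 counts. Lipase Inh. + SR-3420 replicate 2 held 4263755, of which the single gene Lars2 took 18.3%, against 0.0397% to 0.121% elsewhere. For some values of the members that rest on this library, the value without it is also given. Values of the other pathway genes and the marker sums include it. All 8 adipocyte markers examined, Adipoq, Fabp4, Plin1 and Ppargc1a among them, were present in every library with a summed level of 6500 to 10500 CPM (counts scaled to library size). Most of this sum came from Adipoq and Fabp4, which mark adipocytes in general. The brown fat genes Cidea and Prdm16 stood at 38.6 to 77.1 CPM and 19 to 65.1 CPM. The 6 endothelial markers summed to at most 1.17 CPM, with Tie1 at 0 in every library. Since these are bulk samples, fewer cells of a type and less RNA per cell cannot be told apart.

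Before the values, the 250 bases in front of the start of 3 members are shown, because these members moved in different ways: Lfng was lower after every stimulation, Notch1 moved in opposite directions with the 2 agents when lipases were inhibited, and Jag1 moved in opposite directions with ISO without and with the inhibitors. The rise of Notch1 with SR-3420 under inhibition and that of Jag1 with ISO did not pass when libraries were scaled by total counts alone. The letters are those of the RefSeq promoter table (GRCm38.p6), which held 6 of the 10 members, and 5 of those 6 had the same 250 bases on mm9 in front of the start used for counting. The window of Lfng lies on the plus strand at chr5:141083045-141083294, that of Notch1 on the minus strand at chr2:26359343-26359592 and that of Jag1 on the minus strand at chr2:136942257-136942506 (all mm9). Capitals mark matches, on either strand, to the RBPJ core TGGGAA, the E-box CACGTG, the N-box CACNAG bound by Hes proteins, and the short form TGACG of the cyclic AMP response element.
Lfng: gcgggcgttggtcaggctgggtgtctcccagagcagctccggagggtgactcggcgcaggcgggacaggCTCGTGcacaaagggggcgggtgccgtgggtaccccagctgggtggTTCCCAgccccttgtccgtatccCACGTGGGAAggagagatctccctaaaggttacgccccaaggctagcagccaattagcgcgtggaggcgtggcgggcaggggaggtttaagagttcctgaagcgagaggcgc
Notch1: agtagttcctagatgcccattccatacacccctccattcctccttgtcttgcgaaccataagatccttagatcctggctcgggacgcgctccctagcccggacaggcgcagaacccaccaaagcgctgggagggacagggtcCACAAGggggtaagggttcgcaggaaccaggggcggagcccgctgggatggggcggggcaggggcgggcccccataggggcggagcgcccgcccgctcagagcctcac
Jag1: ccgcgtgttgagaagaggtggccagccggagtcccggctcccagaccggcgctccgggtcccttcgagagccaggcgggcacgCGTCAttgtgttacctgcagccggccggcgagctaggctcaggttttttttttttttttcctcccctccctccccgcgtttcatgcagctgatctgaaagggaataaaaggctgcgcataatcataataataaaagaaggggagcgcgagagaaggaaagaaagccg

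In the Lfng window the RBPJ core occurred 2 times, beginning 135 and 108 bases before the start, and the E-box began 112 bases before it, so that the E-box and the nearer RBPJ core share letters. Among the 5 members searched (Lfng, Rfng, Notch1, Notch2 and Jag1), Lfng was the single one with an RBPJ core or an E-box in this window. Over the 32851 windows of the RefSeq table, 21.6% held the RBPJ core and 6.02% the E-box. The N-box occurred in 4 of the 5 members, at 181 bases in Lfng and 108 bases in Notch1, and in 36.7% of all windows. TGACG began 167 bases before the start of Jag1 and 57 bases before that of Rfng, and 17.8% of all windows held it. The full form TGACGTCA, which contains the short one, was in none of the 5 members and in 1.55% of all windows. A match describes letters and does not show binding.

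To compare levels between genes, CPM were divided by the counted transcript length in kb. In Vehicle, the fringes were the most abundant members per length. Rfng stood at 19.5 ± 1.19 CPM per kb (SD, n = 3), Lfng at 18.9 ± 4.74 and Mfng at 15.7 ± 0.793, and the ranges of neighbours in this order overlapped. Notch2 followed at 12.1 ± 1.31 CPM per kb, then Hes1 at 8.87 ± 1.74, Notch1 at 6.52 ± 0.186 and Jag1 at 5.77 ± 0.283. From Mfng downwards, the ranges of neighbours did not overlap. Notch3 stood at 1.52 ± 0.184 CPM per kb and Hey1 at 0.826 ± 0.117, while Heyl, at 0.0450 ± 0.0208, was close to the limit of detection.

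**Figure D1:**
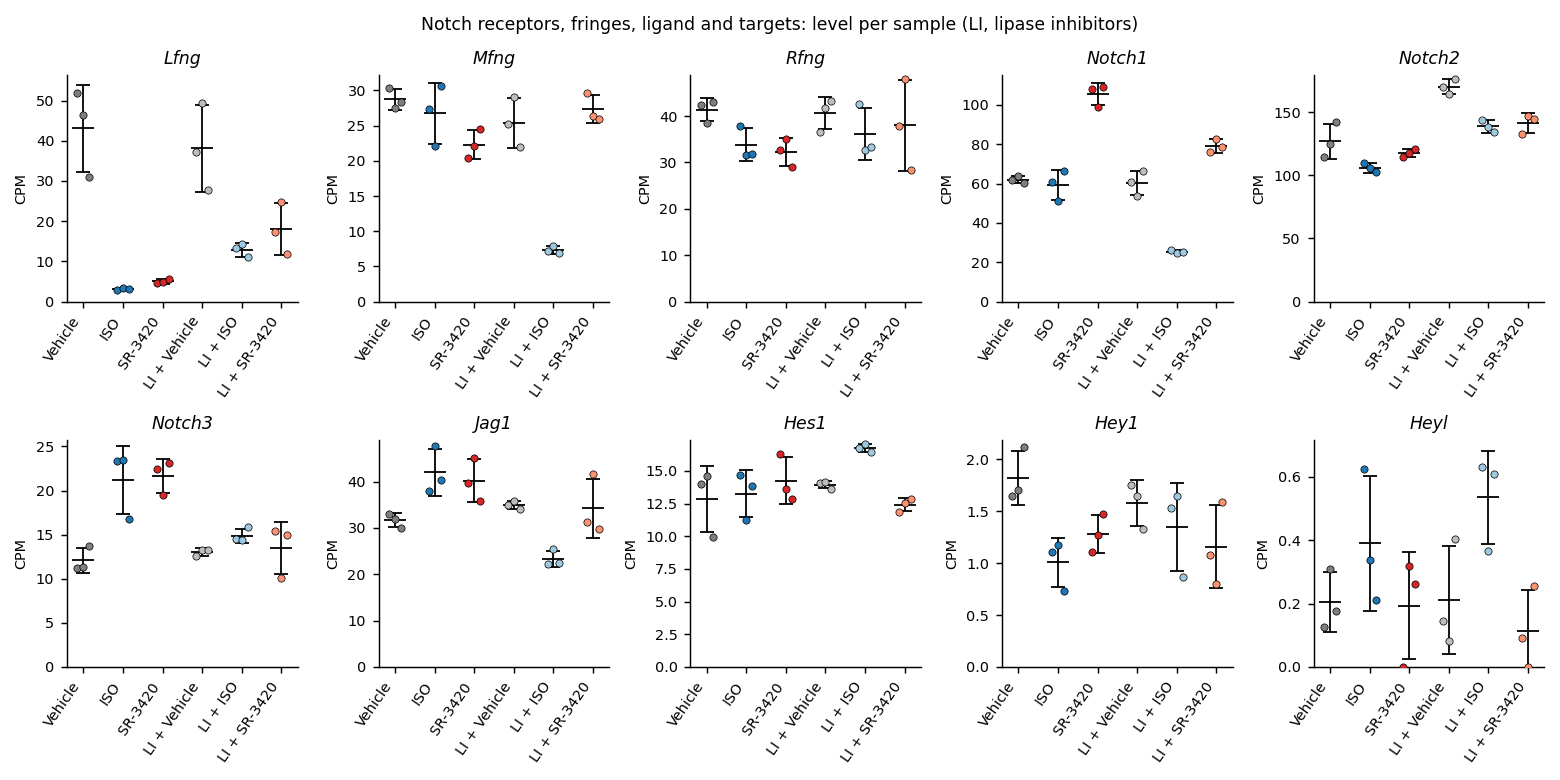
Level of each of the 10 genes in CPM (linear axis from 0) in the 6 groups, where LI stands for lipase inhibitors, points are samples and the bar with whiskers is the mean ± SD of 3. Lfng sat between 2.85 and 5.66 CPM in all ISO and SR-3420 samples and between 27.9 and 51.8 CPM in all Vehicle samples with or without inhibitors, while Mfng and Notch1 were lowest in the 3 Lipase Inh. + ISO samples.

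Lfng, lunatic fringe (NM_008494, chr5:141083295-141091499, plus strand), had the largest absolute log2 fold change among the 9 members tested, with ISO and with SR-3420. The 3 Vehicle samples held 51.8, 46.4 and 31.0 CPM, against 2.85, 3.36 and 3.05 CPM with ISO and 4.56, 4.94 and 5.66 CPM with SR-3420. The groups did not overlap, and all 3 ISO samples lay below all 3 SR-3420 samples. The log2 fold change against Vehicle was -3.81 ± 0.27 (SE) for ISO and -3.08 ± 0.24 for SR-3420, and the difference between both agents was -0.73 ± 0.32. These values chose the list and carry no test. With lipase inhibitors alone, the level (37.1, 49.3 and 27.9 CPM) overlapped that of Vehicle.

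With the lipases inhibited, both agents still lowered Lfng, but to higher levels than without the inhibitors. The samples held 13.3, 14.4 and 11.1 CPM in Lipase Inh. + ISO and 17.2, 24.8 and 12 CPM in Lipase Inh. + SR-3420. Both groups lay below all 3 Lipase Inh. + Vehicle samples and above all ISO and SR-3420 samples without inhibitors. Against Lipase Inh. + Vehicle, Lfng fell by 1.57 ± 0.22 on the log2 scale with ISO (adjusted p = 2.05e-06, edgeR quasi-likelihood test) and by 1.19 ± 0.22 with SR-3420 (adjusted p = 0.00209). The list was picked for the repression of Lfng with earlier results of these data known, so these p-values are not independent of that choice. Without the shallow replicate 2, the SR-3420 change was -1.39 (adjusted p = 8.52e-04). The difference between the 2 agents under inhibition was -0.38 (95% interval -0.87 to 0.11, adjusted p = 0.181), and -0.17 (adjusted p = 0.558) without the shallow replicate 2. It passed the test without Lipase Inh. + SR-3420 replicate 3 (-0.65, adjusted p = 0.0346) and with scaling by total counts (-0.51, adjusted p = 0.0476). The effect with inhibitors minus that without, given as a description because it uses the groups that chose Lfng, was 2.24 ± 0.35 for ISO and 1.90 ± 0.33 for SR-3420.

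Mfng, manic fringe (NM_008595, chr15:78586313-78603875, minus strand), fell with ISO when lipases were inhibited, whereas no change with ISO alone passed the test. The Vehicle samples held 30.3, 27.5 and 28.3 CPM and the ISO samples 27.4, 22.2 and 30.7 CPM. In contrast, Lipase Inh. + ISO samples held 7.20, 7.96 and 6.84 CPM, below every other sample of the series, where Lipase Inh. + Vehicle held 25.2, 29.0 and 22.0 CPM. The fall was 1.79 ± 0.13 on the log2 scale (adjusted p = 2.11e-10), against -0.11 ± 0.12 for ISO without inhibitors (95% interval -0.35 to 0.14, adjusted p = 0.464), and the difference between both effects was -1.69 ± 0.18 (adjusted p = 2.29e-07). With total counts as the scale, ISO without inhibitors lowered Mfng past the threshold (-0.41, adjusted p = 0.00835). Lipase Inh. + SR-3420 samples (29.7, 26.4 and 26.0 CPM) overlapped Lipase Inh. + Vehicle, and the 2 agents differed under inhibition by -1.91 ± 0.14 (adjusted p = 1.27e-10).

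SR-3420 alone lowered Mfng slightly, to 20.4, 22.1 and 24.5 CPM, below all 3 Vehicle samples. The fall was 0.36 ± 0.12 on the log2 scale (adjusted p = 0.0137) and did not pass without Vehicle replicate 1 (adjusted p = 0.0590) or without SR-3420 replicate 1 (adjusted p = 0.0705). The effect of SR-3420 with inhibitors minus that without was 0.48 ± 0.17 (adjusted p = 0.0399). This difference missed the threshold in 6 of 12 fits that left out a single library, with adjusted p up to 0.116, namely without replicate 1 of Vehicle, SR-3420, Lipase Inh. + Vehicle or Lipase Inh. + SR-3420, without SR-3420 replicate 2 or without Lipase Inh. + Vehicle replicate 3. ISO and SR-3420 without inhibitors differed by 0.25 (95% interval 0.01 to 0.50, adjusted p = 0.114), and by 0.37 (adjusted p = 0.0310) without ISO replicate 2.

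Rfng, radical fringe (NM_009053, chr11:120642059-120645518, minus strand), had the narrowest range of group means among the 3 enzymes. Vehicle samples held 42.5, 38.5 and 43.1 CPM, ISO samples 37.9, 31.7 and 31.8 CPM and SR-3420 samples 32.8, 35.0 and 28.9 CPM. Both stimulated groups lay below the Vehicle samples. With SR-3420 the fall was 0.36 ± 0.14 on the log2 scale (adjusted p = 0.0304), which was lost without Vehicle replicate 1 or 3 (adjusted p = 0.0810 and 0.0708) and without SR-3420 replicate 1 or 3 (adjusted p = 0.0587 and 0.137). With ISO the change was -0.29 ± 0.14 (adjusted p = 0.0861), which passed with scaling by total counts (-0.59, adjusted p = 2.54e-04), without a low-count filter (adjusted p = 0.0456) and when the 2 groups were fitted alone (adjusted p = 0.0304). Under inhibition neither agent moved Rfng past the threshold (ISO -0.17 ± 0.14, adjusted p = 0.282; SR-3420 -0.15 ± 0.14, adjusted p = 0.655). Its total-count change with inhibited lipases and ISO was -0.40 (adjusted p = 0.00784).

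Per length, the make-up of the fringe family differed between the groups. Lfng held 34.6% ± 6.15 (SD, n = 3) of the summed fringe level in Vehicle, 4.28% ± 0.781 in ISO and 7.47% ± 0.812 in SR-3420, and 33.1% ± 5.30 with the inhibitors alone. In Lipase Inh. + ISO the Lfng share was 21.2% ± 2.57 and that of Mfng was 15.1% ± 1.76, so Rfng held 63.7% ± 4.2. In Lipase Inh. + SR-3420 the shares were 18.9% ± 3.43 for Lfng, 37.4% ± 6.73 for Mfng and 43.7% ± 3.31 for Rfng. The summed level was 54.1 ± 4.97 CPM per kb in Vehicle, 31.9 ± 2.99 in ISO, 29.6 ± 1.05 in SR-3420, 49.7 ± 6.58 in Lipase Inh. + Vehicle, 26.7 ± 2.82 in Lipase Inh. + ISO and 40.8 ± 7.58 in Lipase Inh. + SR-3420. The ranges of the sum in ISO without and with inhibitors overlapped (28.5 to 34.1 and 24.3 to 29.8 CPM per kb), while Lfng was the lowest member in the first group and Mfng in the second.

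**Figure D2:**
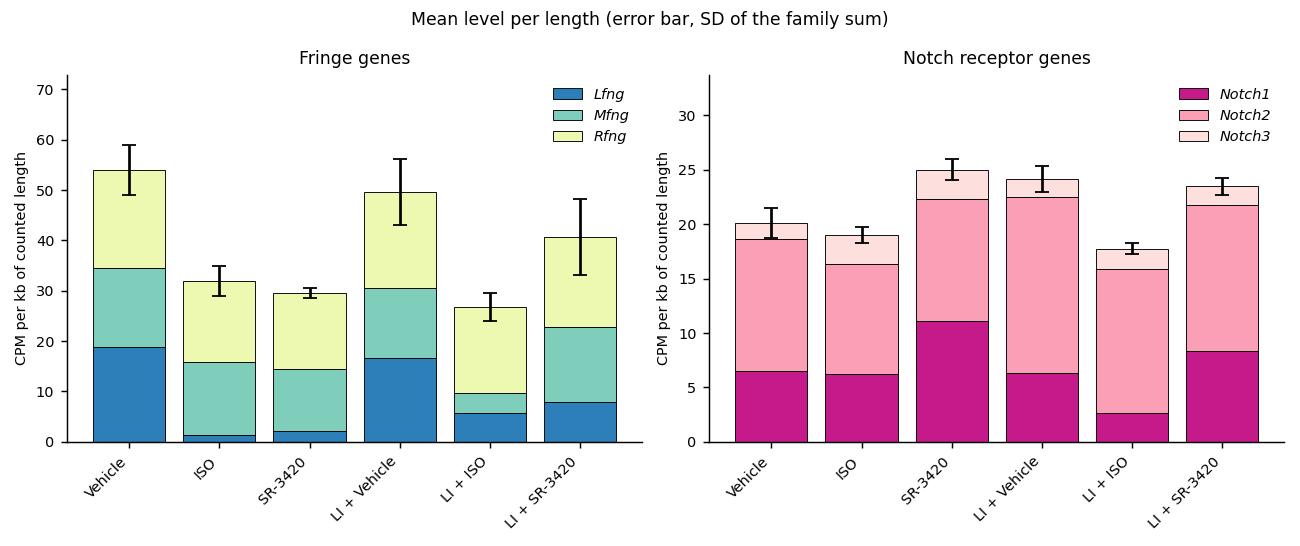
Stacked mean levels in CPM per kb of counted length (axes from 0) of the fringe genes and of the receptor genes Notch1 to Notch3 in the 6 groups, where LI stands for lipase inhibitors and the whisker is the SD of the family sum over 3 samples. The Lfng block is smallest in ISO and SR-3420, at 4.28% and 7.47% of the fringe sum, and the Notch1 block is smallest in Lipase Inh. + ISO, at 15% of the receptor sum.

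Among the receptors, Notch1 (NM_008714, chr2:26313422-26359342, minus strand) separated the 2 agents. Vehicle samples held 61.9, 63.6 and 60.1 CPM, ISO samples 60.9, 51.2 and 66.2 CPM, and SR-3420 samples 108, 98.8 and 109 CPM. SR-3420 lay above all other samples, whereas ISO overlapped Vehicle. Notch1 rose with SR-3420 by 0.77 ± 0.09 on the log2 scale (adjusted p = 1.70e-07), ISO gave -0.06 ± 0.09 (95% interval -0.24 to 0.12, adjusted p = 0.583), and the agents differed by -0.83 ± 0.09 (adjusted p = 2.55e-07). With total counts as the scale, ISO gave -0.37 (adjusted p = 0.00259).

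The summed level of 8 preadipocyte and fibroblast markers, of which 6 passed the count filter, was also highest in SR-3420, at 288 to 291 CPM, against 190 to 238 CPM in Vehicle and 231 to 262 CPM in ISO. The 6 mural cell markers, of which 5 passed, summed to 215 to 226 CPM in SR-3420, against 148 to 182 CPM in Vehicle and 148 to 170 CPM in ISO, and the pericyte marker Rgs5 was at 0 to 3 counts in every library. The markers did not move as 1 group. With SR-3420, Col1a1 and Col1a2 rose among the 6 tested preadipocyte and fibroblast markers, and Tagln and Cspg4 rose among the 5 mural markers, while the smooth muscle marker Myh11 fell by 0.46 ± 0.17 on the log2 scale (adjusted p = 0.0251). Acta2 and Des did not pass the test. The part of these markers in the Notch1 and Notch3 levels was not tested.

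With lipases inhibited, Notch1 moved in opposite directions with the 2 agents. The level was 60.5, 53.8 and 66.2 CPM in Lipase Inh. + Vehicle, 26.2, 24.5 and 25.3 CPM in Lipase Inh. + ISO, and 75.9, 82.6 and 78.4 CPM in Lipase Inh. + SR-3420, and none of these groups overlapped. ISO lowered Notch1 by 1.25 ± 0.09 on the log2 scale (adjusted p = 1.60e-10), and this effect differed from that without inhibitors by -1.19 ± 0.13 (adjusted p = 2.33e-07). In these 2 groups the preadipocyte and fibroblast marker sums were 204 to 230 and 181 to 221 CPM, and the mural sums were 142 to 149 and 139 to 149 CPM. Within these sums Myh11 fell with Notch1, from 8.06 ± 0.698 to 2.10 ± 0.471 CPM (-1.93 ± 0.18, adjusted p = 8.26e-09), and the other 4 mural markers tested did not pass. Of the preadipocyte and fibroblast markers, Ly6a and Thy1 rose and Col1a2 fell.

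SR-3420 raised Notch1 under inhibition by 0.38 ± 0.09 (adjusted p = 0.0122). This call was lost without Lipase Inh. + Vehicle replicate 2 (0.31, adjusted p = 0.0712) and with total-count scaling (0.28, adjusted p = 0.140), and without the shallow library it stood at 0.36 (adjusted p = 0.0475). The mural marker sum was also higher, at 154 to 165 CPM against 142 to 149 CPM in Lipase Inh. + Vehicle, with 0 of its 5 tested genes called, and the preadipocyte and fibroblast sums overlapped (213 to 238 and 204 to 230 CPM). The part of these markers was not tested. The SR-3420 effect with inhibitors minus that without was -0.39 ± 0.12 (adjusted p = 0.0223). The interaction missed the threshold in 4 of 12 fits leaving out a library (replicates 1 and 3 of SR-3420, Lipase Inh. + SR-3420 replicate 1 and Lipase Inh. + Vehicle replicate 3, adjusted p 0.0514 to 0.0759) and with total-count scaling (-0.33, adjusted p = 0.0860). The 2 agents differed under inhibition by -1.63 ± 0.09 (adjusted p = 2.93e-12).

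Notch2 (NM_010928, chr3:97817461-97954290, plus strand) was the most abundant receptor per length in Vehicle and the single one of the 8 members tested to pass the threshold with the lipase inhibitors alone. Vehicle samples held 115, 125 and 142 CPM and Lipase Inh. + Vehicle samples 170, 164 and 176 CPM, without overlap. Notch2 rose by 0.42 ± 0.07 on the log2 scale (adjusted p = 0.00171), and when these 2 groups were fitted alone the same change had an adjusted p of 0.0549. ISO lowered it from both starting levels, to 110, 105 and 102 CPM without inhibitors (-0.26 ± 0.07, adjusted p = 0.00405) and to 144, 138 and 134 CPM with them (-0.30 ± 0.07, adjusted p = 0.00104). The difference between these effects was -0.03 (95% interval -0.24 to 0.17, adjusted p = 0.825).

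SR-3420 alone gave a Notch2 level of 115, 117 and 121 CPM, which overlapped Vehicle (-0.11 ± 0.07, adjusted p = 0.200), and this change passed the test without Vehicle replicate 1 (-0.18, adjusted p = 0.0409) and with total-count scaling (-0.27, adjusted p = 0.00826). With inhibitors, SR-3420 samples held 133, 147 and 144 CPM, below all Lipase Inh. + Vehicle samples, and the fall was 0.27 ± 0.07 on the log2 scale (adjusted p = 0.0295). It was lost in 4 of 6 fits leaving out a library (replicates 1 and 3 of either group, adjusted p 0.0505 to 0.122) and when the 2 groups were fitted alone (adjusted p = 0.0515), and stood at -0.29 (adjusted p = 0.0470) without the shallow library.

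Notch3 (NM_008716, chr17:32257838-32303797, minus strand), known from mural cells, was the least abundant of the 3 receptors. Vehicle samples held 11.2, 11.3 and 13.8 CPM, ISO samples 23.4, 23.4 and 16.8 CPM and SR-3420 samples 22.4, 19.5 and 23.1 CPM. Both stimulated groups lay above every Vehicle sample. Notch3 rose by 0.83 ± 0.14 with ISO (adjusted p = 3.31e-05) and by 0.85 ± 0.14 with SR-3420 (adjusted p = 2.21e-05), and the agents differed by -0.03 (95% interval -0.30 to 0.25, adjusted p = 0.904).

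With lipases inhibited, the Notch3 levels drew together. Lipase Inh. + Vehicle held 12.5, 13.3 and 13.3 CPM, Lipase Inh. + ISO 14.5, 14.4 and 15.8 CPM, and Lipase Inh. + SR-3420 15.4, 10.1 and 14.9 CPM. Neither agent passed the test there (ISO 0.20, 95% interval -0.09 to 0.49, adjusted p = 0.230; SR-3420 0.11, -0.19 to 0.42, adjusted p = 0.761). The effect with inhibitors minus that without was -0.63 ± 0.20 for ISO (adjusted p = 0.0175) and -0.74 ± 0.20 for SR-3420 (adjusted p = 0.00818). For ISO it was lost without ISO replicate 1 (-0.55, adjusted p = 0.0568) and with total-count scaling (-0.55, adjusted p = 0.0612). Without the shallow library the SR-3420 value was -0.64 (adjusted p = 0.0176).

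Within the receptor family per length, the share of Notch1 was 32.5% ± 2.78 in Vehicle, 32.9% ± 3.83 in ISO and 44.4% ± 1.05 in SR-3420. It was 26.2% ± 1.41 with inhibitors alone, 15% ± 0.306 in Lipase Inh. + ISO and 35.4% ± 0.850 in Lipase Inh. + SR-3420. Notch2 held 67% ± 1.1 in Lipase Inh. + Vehicle and 74.4% ± 0.924 in Lipase Inh. + ISO. The share of Notch3 went from 7.54% ± 0.473 in Vehicle to 14.0% ± 2.51 in ISO and 10.9% ± 0.577 in SR-3420.

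Jag1, a ligand presented to neighbouring cells (NM_013822, chr2:136907187-136942256, minus strand), rose slightly with either agent when lipases were free to act. Vehicle samples held 33.1, 32.0 and 30.0 CPM, ISO samples 38.0, 47.7 and 40.2 CPM and SR-3420 samples 39.8, 45.1 and 35.8 CPM, without overlap with Vehicle. The rise was 0.40 ± 0.11 on the log2 scale with ISO (adjusted p = 0.00433) and 0.34 ± 0.11 with SR-3420 (adjusted p = 0.0142). Both depended on the scale: with total counts the changes were 0.10 (adjusted p = 0.441) and 0.18 (adjusted p = 0.157). The SR-3420 rise was also lost without SR-3420 replicate 2 (adjusted p = 0.0884) or Vehicle replicate 3 (adjusted p = 0.0516).

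With lipases inhibited, ISO had the opposite effect on Jag1. Lipase Inh. + Vehicle samples held 34.9, 35.8 and 34.0 CPM and Lipase Inh. + ISO samples 22.2, 25.4 and 22.5 CPM, below all other samples of the series. The fall was 0.58 ± 0.11 on the log2 scale (adjusted p = 1.49e-04), and it differed from the effect without inhibitors by -0.99 ± 0.16 (adjusted p = 5.25e-05). In Lipase Inh. + SR-3420 the samples held 31.2, 41.6 and 29.8 CPM, on both sides of Lipase Inh. + Vehicle, with the highest value in the shallow library, and the change was -0.08 ± 0.12 (adjusted p = 0.805). The SR-3420 interaction was -0.41 ± 0.16 (adjusted p = 0.0585), and passed without that library (-0.53, adjusted p = 0.0109), without SR-3420 replicate 3 (-0.49, adjusted p = 0.0340) or without a low-count filter (adjusted p = 0.0438). The agents differed under inhibition by -0.51 ± 0.12 (adjusted p = 9.83e-04), and by -0.39 (adjusted p = 0.00636) without the shallow library.

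**Figure D3:**
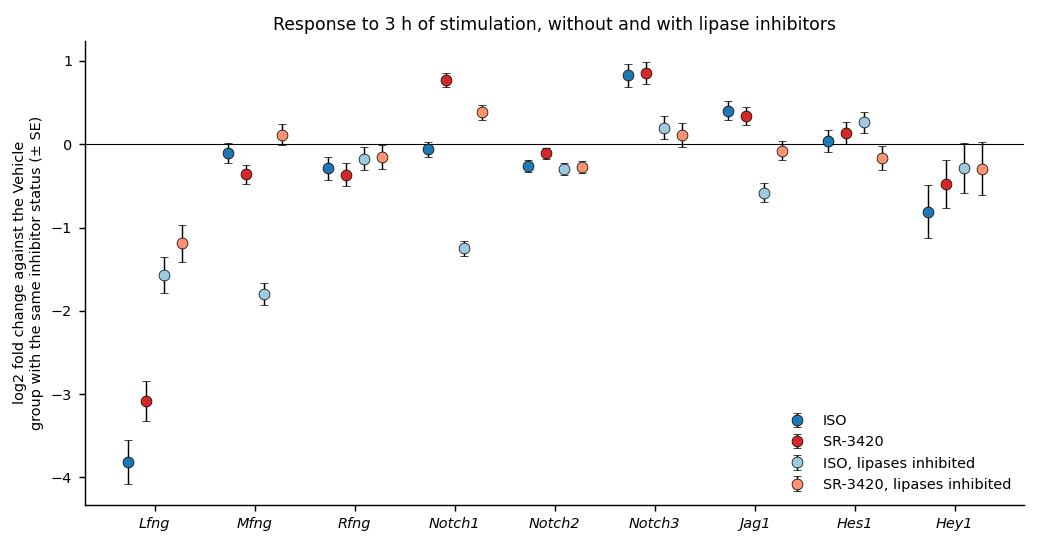
Log2 fold change (point) ± SE (whisker) of 9 genes after 3 h of ISO or SR-3420, without inhibitors against Vehicle and with lipases inhibited against Lipase Inh. + Vehicle. ISO under inhibition (light blue) stands lowest for Mfng at -1.79, Notch1 at -1.25 and Jag1 at -0.58, and the values of Lfng without inhibitors, -3.81 and -3.08, chose the list and carry no test.

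Among the target genes, Hes1, a transcriptional repressor (NM_008235, chr16:30065443-30067882, plus strand), held 14.0, 14.6 and 9.97 CPM in Vehicle, 14.7, 11.3 and 13.9 CPM in ISO and 16.3, 13.6 and 12.8 CPM in SR-3420. These groups overlapped, and the changes were 0.04 (95% interval -0.24 to 0.32, adjusted p = 0.833) with ISO and 0.13 (-0.14 to 0.41, adjusted p = 0.414) with SR-3420. In Lipase Inh. + ISO, however, the samples held 16.7, 17 and 16.5 CPM, above the 14.1, 14.2 and 13.6 CPM of Lipase Inh. + Vehicle and the 11.9, 12.5 and 12.9 CPM of Lipase Inh. + SR-3420.

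The Hes1 change with ISO under inhibition was 0.26 ± 0.13 (adjusted p = 0.0912), and passed when these 2 groups were fitted alone (0.25, adjusted p = 0.0447). The difference between the agents under inhibition was 0.43 ± 0.14 (adjusted p = 0.0120). It was lost without Lipase Inh. + SR-3420 replicate 1 (0.39, adjusted p = 0.0505) and with total-count scaling (0.29, adjusted p = 0.101).

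Hey1, a repressor of the same family (NM_010423, chr3:8663359-8667038, minus strand), rested on 3 to 28 counts per library. Vehicle samples held 1.64, 1.70 and 2.12 CPM and ISO samples 1.11, 1.18 and 0.74 CPM, without overlap. The fall with ISO was 0.81 ± 0.32 on the log2 scale (adjusted p = 0.0362). It missed the threshold without ISO replicate 1 or 3 (adjusted p = 0.0641 and 0.122), without Vehicle replicate 2 or 3 (adjusted p = 0.0548 and 0.108), with DESeq2 (adjusted p = 0.0718) and without a low-count filter (adjusted p = 0.0735). In the other contrasts Hey1 did not pass, and the 95% interval of the SR-3420 interaction, for example, ran from -0.72 to 1.09.

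Heyl, the third repressor of this group (NM_013905, chr4:122910799-122927113, plus strand), had 0 to 12 counts per library and did not pass the filter on low counts. Summed over 3 libraries, Heyl had 8 counts in Vehicle, 15 in ISO, 9 in SR-3420, 10 in Lipase Inh. + Vehicle, 23 in Lipase Inh. + ISO and 5 in Lipase Inh. + SR-3420. It was listed at 0 in SR-3420 replicate 1, where the limit of 3 counts corresponds to 0.220 CPM, and in Lipase Inh. + SR-3420 replicate 2, where it corresponds to 0.799 CPM. Such limits cover counting error only.

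Counted over the whole table of 12156 genes tested, ISO against Vehicle gave adjusted p of at most 0.05 to 26.8% of genes as higher and 25.0% as lower, and SR-3420 against Vehicle to 26.0% and 25.4%. Of the 8 members tested beside Lfng, 2 rose and 2 fell with ISO, and 3 rose and 2 fell with SR-3420, and since the list was chosen on these contrasts nothing is read from these counts. With total-count scaling they were 1 and 5 for ISO and 2 and 3 for SR-3420. The inhibitors alone raised 0.485% and lowered 0.428% of all genes, and 1 of the 8 members, Notch2, rose. With lipases inhibited, ISO raised 29.4% and lowered 28.3% of all genes, while 0 of 9 members rose and 5 fell, namely Lfng, Mfng, Notch1, Notch2 and Jag1. Without Lfng, whose repression picked the list, 0 of 8 rose and 4 fell. A log2 fold change of at least 1 in either direction was in addition reached by 13.1% of genes, and by the members Lfng, Mfng and Notch1. SR-3420 under inhibition raised 2.99% and lowered 1.36% of genes, against 1 member that rose and 2 that fell, Lfng among the latter.

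In the ISO by inhibitor interaction, 14.9% of genes were positive and 16.6% negative, against 0 and 4 of the 8 members, and 6.89% passed a difference of 1, against Mfng and Notch1. The SR-3420 interaction was positive for 12.5% and negative for 14.8% of genes, and for 1 and 2 members. Between ISO and SR-3420 without inhibitors, 15.8% of genes were higher and 13.9% lower with ISO, and Notch1 was the single member to differ. Under inhibition 28.6% were higher and 28.3% lower with ISO, and so were 1 and 3 of the 9 members. The median log2 fold change of the 8 members beside Lfng with ISO under inhibition was -0.29, against -0.01 over all genes. These contrasts share control samples with each other.

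Outside the members, 48 of 60 other genes of the Notch pathway passed the filter on low counts. With ISO, 10 of these 48 rose and 16 fell, and with SR-3420 14 rose and 14 fell. Over all genes tested, 26.8% rose and 25.0% fell with ISO, and 26.0% rose and 25.4% fell with SR-3420. The inhibitors alone raised 1, the corepressor Spen (0.37 ± 0.08, adjusted p = 0.0125), against 0.485% of all genes. Under inhibition 10 rose and 18 fell with ISO (29.4% and 28.3% of all genes), whereas 2 rose and 1 fell with SR-3420 (2.99% and 1.36% of all genes). In the interaction with the inhibitors, 9 were positive and 10 negative for ISO (14.9% and 16.6% of all genes), and 8 and 6 for SR-3420 (12.5% and 14.8%). Between the agents, 3 were higher and 8 lower with ISO without inhibitors (15.8% and 13.9% of all genes), and 12 and 17 with them (28.6% and 28.3%). The counts of the smaller lists below stand beside the same shares, and nothing is read from them.

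Of 4 genes that act on the receptor before it reaches the surface, by glycosylation or maturation, 3 fell with ISO and 3 with SR-3420. Furin, the protease that cuts the receptor during its maturation, fell with ISO by 0.65 ± 0.09 (adjusted p = 4.41e-06) and rose with ISO under inhibition by 0.62 ± 0.09 (adjusted p = 4.79e-06), with an interaction of 1.27 ± 0.13 (adjusted p = 1.28e-07), and fell with SR-3420 under inhibition by 0.38 ± 0.09 (adjusted p = 0.0203). Without inhibitors, Furin was also lower in SR-3420, at 102 ± 9.48 CPM against 173 ± 11.9 CPM in Vehicle. Under inhibition 1 of the 4 rose and 2 fell with ISO.

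Of the other receptors and ligands, 3 of 8 passed the count filter. The fourth receptor, Notch4, known from endothelial cells, was at 6.63 ± 0.800 CPM in Vehicle and 2.94 ± 0.126 CPM in SR-3420, and fell by 1.16 ± 0.18 on the log2 scale (adjusted p = 1.23e-05). Notch4 was also lower in ISO, at 3.77 ± 0.271 CPM, and in Lipase Inh. + ISO, at 3.01 ± 0.307 CPM against 5.57 ± 0.703 in Lipase Inh. + Vehicle. Its SR-3420 interaction was 0.87 ± 0.26 (adjusted p = 0.0141). The ligand genes Dll1, Dll3, Dll4 and Jag2 did not pass the filter, so Jag1 was the single canonical ligand tested.

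Among the 9 genes of receptor cleavage, 2 rose and 4 fell with ISO, 1 rose and 3 fell with SR-3420, and under inhibition 2 rose and 3 fell with ISO and 0 of 9 moved with SR-3420. Aph1c, which encodes a gamma-secretase subunit and has the close relative Aph1b with which it may share reads, fell with ISO under inhibition by 1.33 ± 0.23 (adjusted p = 5.25e-05). Ubiquitin ligases act on the ligand in the signal-sending cell. Of 5 genes tested from the list of such ligases and their relatives, 1 rose and 1 fell with ISO and 0 rose and 1 fell with SR-3420. Neurl1b fell by 1.63 ± 0.14 with ISO (adjusted p = 4.42e-09) and by 1.09 ± 0.14 with SR-3420 (adjusted p = 9.74e-07), with an SR-3420 interaction of 0.86 ± 0.19 (adjusted p = 0.00204).

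Under inhibition, 4 of the 5 genes of this list fell and 1 rose with ISO. Neurl2, whose action on a Notch ligand is not established, fell by 1.68 ± 0.29 (adjusted p = 4.20e-05) and Neurl1a by 1.55 ± 0.40 (adjusted p = 0.00202). Neurl2 differed from its response without inhibitors by -1.29 ± 0.40 (adjusted p = 0.0158). Both were also lower with ISO than with SR-3420 under inhibition, by -1.24 ± 0.32 (adjusted p = 0.00249) and -1.32 ± 0.43 (adjusted p = 0.0122).

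In the nucleus, 2 of 6 genes of the RBPJ complex rose and 1 fell with ISO, 3 rose and 1 fell with SR-3420, and under inhibition 3 fell with ISO and 0 of 6 moved with SR-3420. Rbpj itself and Maml1, which were singled out after their values had been seen, rose with SR-3420 by 0.45 ± 0.08 (Rbpj, adjusted p = 8.83e-05) and 0.87 ± 0.08 (Maml1, adjusted p = 1.52e-08). Both were also higher in ISO, with Rbpj at 125 ± 5.78 CPM against 99.8 ± 11.9 in Vehicle, and Maml1 at 133 ± 7.53 against 85.4 ± 6.74. Of 9 corepressors, 3 rose and 2 fell with ISO and 3 rose and 3 fell with SR-3420. Tle3, a Groucho-type corepressor, rose by 1.34 ± 0.10 with ISO (adjusted p = 2.57e-10) and by 1.41 ± 0.10 with SR-3420 (adjusted p = 1.81e-10), and by 0.74 ± 0.10 with SR-3420 under inhibition (adjusted p = 7.36e-05). Ncor1 rose by 0.32 ± 0.08 in the last contrast (adjusted p = 0.0216). Tle3 was also higher in Lipase Inh. + ISO, at 245 ± 16.2 CPM against 100 ± 9.22 CPM in Lipase Inh. + Vehicle. Aes was higher with ISO than with SR-3420 by 0.38 ± 0.13 (adjusted p = 0.0252).

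Of 10 tested genes that set the level of the receptor, 2 rose and 3 fell with ISO, 6 rose and 1 fell with SR-3420, and 3 rose and 3 fell with ISO under inhibition. Dtx4, a Deltex ubiquitin ligase, had interactions of 1.34 ± 0.12 for ISO (adjusted p = 2.02e-08) and 0.88 ± 0.12 for SR-3420 (adjusted p = 1.40e-05). Without inhibitors, Dtx4 was lower in ISO (44.05 ± 2.73 CPM) and SR-3420 (55.6 ± 1.46) than in Vehicle (91.2 ± 4.8). With them, Dtx4 stood at 111 ± 16.5 CPM in Lipase Inh. + ISO, 102 ± 1.1 in Lipase Inh. + SR-3420 and 90.9 ± 4.7 in Lipase Inh. + Vehicle. Its relative Dtx2 was lower with ISO than with SR-3420, by -0.75 ± 0.09 without inhibitors (adjusted p = 3.15e-06) and -1.17 ± 0.10 with them (adjusted p = 1.30e-09). Of 7 other genes listed with the targets, Hes6 and Hey2 passed the count filter. Hes6, whose control by Notch is not established, fell with ISO by 1.44 ± 0.20 (adjusted p = 3.76e-06), while Hey2 did not pass the test (adjusted p = 0.243). In SR-3420, Hes6 was also lower, at 9.31 ± 0.837 CPM against 18.7 ± 4.76 CPM in Vehicle.

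**Figure D4:**
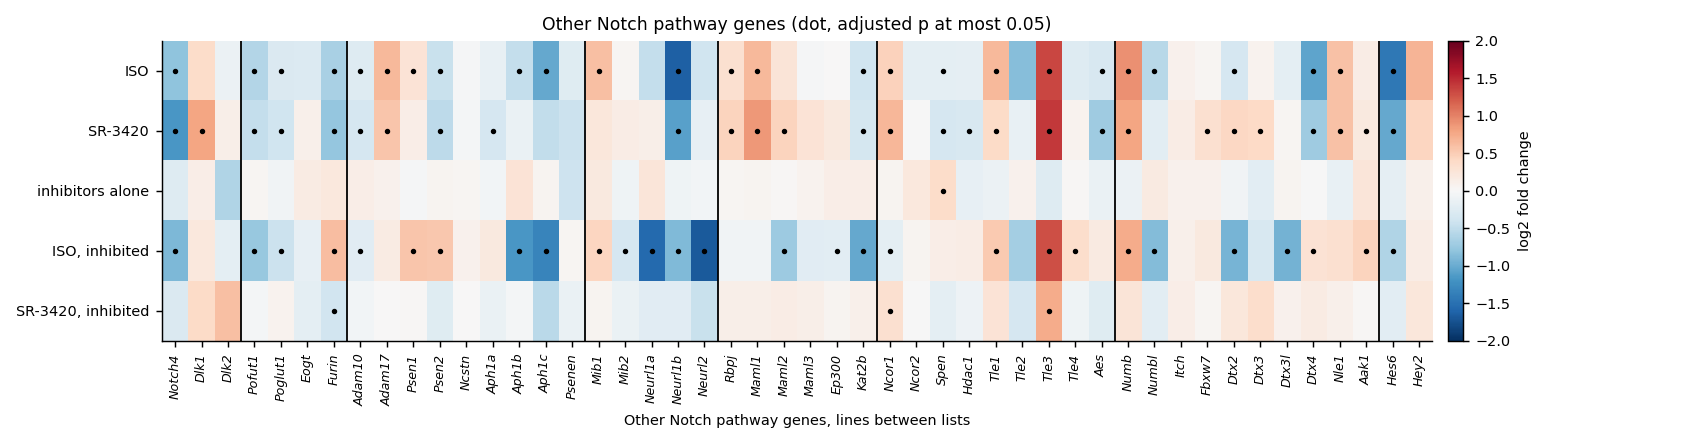
Log2 fold change (colour, from -2 in blue to 2 in red) of 48 other Notch pathway genes in 5 contrasts, each against the Vehicle group of the same inhibitor status or, for inhibitors alone, against Vehicle, with a dot where the adjusted p is at most 0.05 and vertical lines between gene lists. Dots are few for inhibitors alone (1 gene) and for SR-3420 with inhibited lipases (3 genes), against 26 with ISO, 28 with SR-3420 and 28 with ISO under inhibition.

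By Pearson correlation of log2 CPM over the 18 samples, the genes with the pattern most like Lfng among 11045 genes were Thtpa (r = 0.969), Slc39a3 (0.967), Gypc (0.965), Brat1 (0.965) and Pomk (0.965). The points share the 6 treatments, so this r describes the treatment pattern. Thtpa, for thiamine triphosphatase, stood at 43.2 ± 1.27 CPM in Vehicle, 23.0 ± 1.23 in ISO, 26.1 ± 1.36 in SR-3420, 41.6 ± 3.79 with inhibitors alone, 33.2 ± 2.91 in Lipase Inh. + ISO and 36.8 ± 5.65 in Lipase Inh. + SR-3420. The order of the groups was that of Lfng over a narrower range. Of the members, Notch3 was the one with the strongest negative r against Lfng (-0.886), Notch2 (0.695) and Rfng (0.628) were positive, and Mfng, the other fringe lowered in Lipase Inh. + ISO, had an r of 0.107. With the 6 group means in place of the samples, 1 of the 5 genes remained among the first 5.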

How the data were processed

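RNA was measured in 18 samples, grouped by their titles. The authors prepared TruSeq libraries, aligned reads to mm9 (STAR 2.4.2a), built HOMER tag directories and obtained gene counts from RefSeq models through iRNA-seq. The deposited values are raw counts for 20295 genes, and use of strand is not given in the sources used here. No member overlaps another gene of the table. Counts were analysed with edgeR 4.0.16 in R 4.3.3 (filterByExpr, minimum count 10, TMM scaling, 1 quasi-likelihood fit over 6 group means in 18 samples). Benjamini-Hochberg adjustment covered all 12156 genes, with calls at 0.05, and DESeq2 is the tool of the study. CPM use TMM-scaled library sizes, errors are SD over 3 samples or SE of the log2 fold change, and intervals use the fit's t distribution. The interaction is the effect with inhibitors minus that without. Members and pathway lists were chosen with earlier results of these data known. Of the other pathway genes, the 3 per contrast with the largest called change and average log2 CPM of at least 1 are named, unless stated. Scripts were tested on simulated data. Alternatives were DESeq2 1.42.0, RLE factors, total counts, other low-count filters, fits of the compared groups alone, a replicate block, other settings for likeness and leaving out each library. Starts are printed counting from 1. P-values set a group difference against the spread between these samples, which is estimated in part across genes. Without a block, that spread includes differences between replicate numbers.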

Additional observations from a re-analysis of the deposited data

Results flagged for a closer look

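Responses of 4 members to ISO differed with inhibitor status by the test of the difference itself (edgeR interaction, effect with inhibitors minus effect without): Mfng by -1.69, Notch1 by -1.19, Notch3 by -0.63 and Jag1 by -0.99 on the log2 scale, with adjusted p of 2.29e-07, 2.33e-07, 0.0175 and 5.25e-05. That of Notch3 was lost without ISO replicate 1 (adjusted p = 0.0568) and with total-count scaling (adjusted p = 0.0612). For SR-3420 the same test singled out Mfng (0.48), Notch1 (-0.39) and Notch3 (-0.74), with adjusted p of 0.0399, 0.0223 and 0.00818. Of these 3, only the Notch3 difference passed in all 12 fits that left out a library. Lfng was not tested in these contrasts because it chose the list.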

How the results depend on the processing

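No member changed direction past the threshold under any alternative run. Fitting the compared groups alone took the number of called members for inhibitors alone from 1 to 0, and scaling by total counts took that for ISO against SR-3420 from 1 to 2. The latter also changed the split of higher and lower members from 2 and 2 to 1 and 5 for ISO, from 3 and 2 to 2 and 3 for SR-3420, and between the agents under inhibition from 1 and 3 to 0 and 4. Under inhibition the split went from 0 and 5 to 0 and 6 for ISO and from 1 and 2 to 0 and 2 for SR-3420. For the ISO interaction it went from 0 and 4 to 0 and 3, and for the SR-3420 interaction from 1 and 2 to 1 and 1. Fitting the compared groups alone also added Rfng with ISO and Hes1 with ISO under inhibition, and removed Notch2 with SR-3420 under inhibition. Leaving out 1 library gave 3 to 5 called members for SR-3420 (5 with all; 3 without SR-3420 replicate 1 or Vehicle replicate 3), 1 to 4 for its interaction (3 with all; 1 without SR-3420 replicate 1, Lipase Inh. + SR-3420 replicate 1 or Lipase Inh. + Vehicle replicate 3) and 1 to 2 for ISO against SR-3420 (1 with all; 2 without ISO replicate 2). Total-count scaling moved the median of all genes by -0.31 for ISO, -0.16 for SR-3420, -0.23 for ISO and -0.10 for SR-3420 under inhibition, -0.15 between the agents and -0.13 between them under inhibition, and the share of called genes that were higher from 51.7% to 19.9%, 50.6% to 30.8%, 51% to 27.8%, 68.8% to 33.1%, 53.1% to 20.3% and 50.3% to 37.0%. It moved that share from 53.2% to 42.0% for inhibitors alone and from 47.3% to 58.6% for the ISO interaction. Lfng was then at -4.12 with ISO, and at -0.87 for ISO against SR-3420. The total-count changes of Mfng with ISO (-0.41, adjusted p = 0.00835) and of Notch2 between the agents (-0.30, adjusted p = 0.00837) passed.

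Deviations from the group means correlated at over 0.1 across genes in 28 of 45 pairs of samples with the same replicate number (1 of 15 for number 1, 12 of 15 for number 2 and 15 of 15 for number 3), against 8 of 90 pairs with different numbers. All 6 samples numbered 2 and all 6 numbered 3 correlated best, on average, with their own number, and 0 of 6 numbered 1 did. Since not every pair passed, the report keeps the fit without the block. With the replicate number as a block, 3 further calls passed: Rfng with ISO (-0.29, adjusted p = 0.0477), the SR-3420 interaction of Jag1 (-0.41, adjusted p = 0.0129) and Lfng between the agents under inhibition (-0.38, adjusted p = 0.0436). The block removed 0 calls among the members. Hey1 and Heyl are limited by depth, at most 28 and 12 counts per library. Only 1 line, 1 time point and 1 dose of each agent were measured.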

Other observations

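Among genes outside the Notch pathway, Slc39a3, a zinc transporter of the ZIP family, was 1 of the 5 most like Lfng, at 164 ± 14.6 CPM in Vehicle, 95.3 ± 2.11 in ISO, 102 ± 3.38 in SR-3420, 165 ± 8.46 with inhibitors alone, 120 ± 7.32 in Lipase Inh. + ISO and 142 ± 12.1 in Lipase Inh. + SR-3420 (SD, n = 3). Pomk, for protein O-mannose kinase, went from 30.0 ± 0.235 CPM in Vehicle to 15.5 ± 1.12 in ISO and 19.0 ± 0.515 in SR-3420, and stood at 21.8 ± 2.25 and 26.5 ± 1.61 CPM in the same treatments under inhibition. Both were chosen for their likeness to Lfng, so these values carry no test.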
